A study of Homo sapiens with 4 samples.

Results

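Secreted and membrane-bound proteases that open the extracellular matrix, together with the inhibitors that hold them in check, were examined in MDA-MB-231 cells. The group held 9 genes chosen by symbol, namely the metalloproteinases MMP1, MMP2, MMP14 and ADAMTS1, the urokinase PLAU and its receptor PLAUR, and the tissue inhibitors of metalloproteinases TIMP1, TIMP2 and TIMP3. Of these, 8 had a row in the transcript table, and their 22 listed transcripts were part of 43596 listed transcripts from 15113 gene symbols. MMP2, which encodes gelatinase A, had no row and was not analysed here.

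MDA-MB-231 is a human triple-negative breast cancer line with a mesenchymal appearance. Cells were treated for 24 h with the vehicle DMSO or with 10 µM KH-3, a small molecule that blocks binding of the RNA-binding protein HuR to its target mRNAs, and mRNA was sequenced from 2 libraries per group. All cells were of this single line and neither group carried a genetic change. The value used throughout was the mean normalized read count of each transcript, averaged by the authors over libraries. The study's methods also name a group at a lower KH-3 dose, which was not analysed here. Which libraries enter the mean, that group included, is not given in the sources used here, and the table has no value per library. Therefore no library totals, replicate spread, error or n could be attached to any level, and DMSO and KH-3 libraries could not be told apart. The authors' own comparison of KH-3 with DMSO was not used, so no value given here describes a response to KH-3.

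Invasive cells cut matrix proteins with zinc-dependent metalloproteinases and with plasmin. Metalloproteinases are made as inactive precursors and are blocked in a tight complex by the TIMP proteins, whose amino-terminal end reaches into the catalytic cleft. Urokinase converts plasminogen to plasmin at the cell surface, where it is held by its receptor uPAR, the product of PLAUR. HuR binds AU-rich stretches in the 3′UTR of many short-lived mRNAs, and PLAUR mRNA is one of the targets named for it in earlier work.

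The inhibitors were the most abundant class when all listed transcripts were summed, and the urokinase pair when only the highest transcript of each gene was taken. A gene's level was taken as its mean normalized reads per kilobase of transcript, summed over its listed transcripts. On this scale the 3 TIMP genes together reached 3689, which was 56.2% of the summed level of the 8 genes. The urokinase pair reached 2378, or 36.2%, and the 3 metalloproteinases reached 493, or 7.52%. With the highest transcript alone the TIMP genes held 36.9% and the urokinase pair 51.1%. The median level of the 8 genes was 645, against 108 for all 15113 listed genes, and 5 of the 8 (62.5%) lay above the latter. Percentiles and medians of all genes leave out genes without a row.

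Gene by gene, the summed levels fell into a high and a low set. TIMP1 was highest at 2598 (percentile 97.9 of all genes). PLAU followed at 1544 (percentile 95.7), then TIMP2 at 1040 (percentile 92.7), and PLAUR at 835 (percentile 90.6). MMP14 was the lowest of the high set at 456 (percentile 81.9). A gap of 8.98 times separated it from TIMP3, which had a level of 50.8. MMP1 at 24.2 and ADAMTS1 at 13.5 closed the order, and these 3 genes lay at percentiles 35.1, 23.1 and 14.8. Neighbours within each set differed by 1.25 to 2.10 times, and PLAU (1491) came before TIMP1 (927) with the highest transcript alone. Without values per library it is unknown whether such differences exceed the replicate spread.

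**Figure D1:**
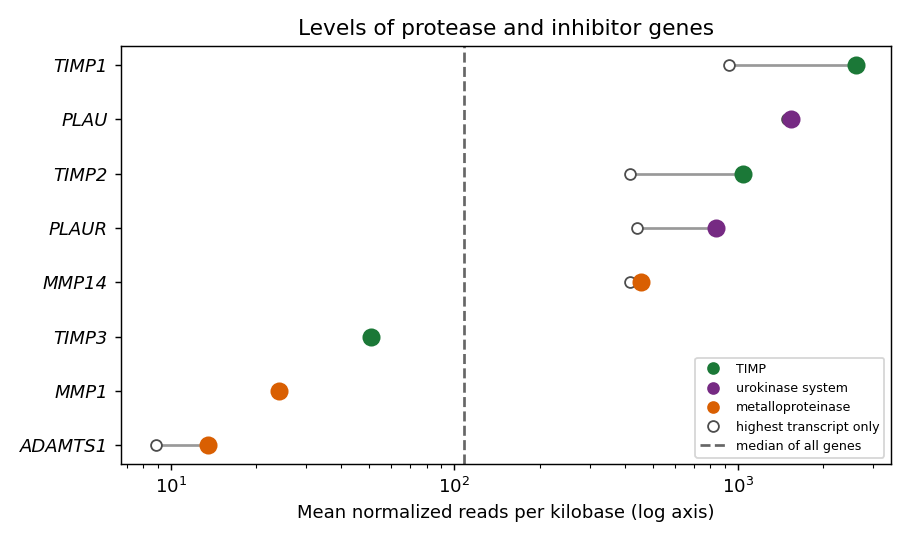
Level of each gene on a log axis of mean normalized reads per kilobase, with filled points for the sum over all listed transcripts, open points for the transcript with the highest mean alone, and a dashed line at the median of all genes. TIMP1, PLAU, TIMP2, PLAUR and MMP14 lay to the right of the line at 108, and TIMP3, MMP1 and ADAMTS1 to its left. The open point fell furthest below the filled one for TIMP1, from 2598 to 927.

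Among the 3 listed metalloproteinases of the group, MMP14 held 456 of the summed level of 493. Outside the group, ADAM9 (1795) and ADAM10 (1188) were higher than MMP14. MMP14 encodes MT1-MMP, a membrane-anchored collagenase that also activates the MMP2 precursor at the cell surface. It lies on the plus strand at chr14:22836560-22849041 (hg38, GENCODE release 44). Its full coding transcript MMP14-001 had a mean of 1555 normalized reads and took 98.6% of the gene's reads. The other listed transcript, MMP14-008, is annotated as a retained intron and had a mean of 22.4. The level of MMP14 was 18.9 times that of MMP1 and 6.11 times that of MMP15, another membrane-type family member.

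MMP1, the interstitial collagenase that cleaves fibrillar collagen, was represented by 1 transcript, MMP1-001, with a mean of 47.6 normalized reads. It lies on the minus strand at chr11:102789401-102798160, and 150 of its 1971 exonic bases (7.61%) also belong to exons of WTAPP1 on the other strand. ADAMTS1 encodes a secreted metalloproteinase with thrombospondin repeats that cleaves proteoglycans such as versican. It lies on the minus strand at chr21:26835755-26845409. Its coding transcript ADAMTS1-001 had a mean of 45.9 normalized reads and took 67.6% of the gene's reads, and the remaining 32.4% were assigned to ADAMTS1-002, a retained intron with a mean of 22.0. For MMP1 and ADAMTS1 these means were under the median of all listed transcripts, which was 50.8 normalized reads, while the lowest mean in the table was 7.34.

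The urokinase system was high in both of its parts. PLAU lies on the plus strand at chr10:73909177-73917496, and its level was 1.85 times that of its receptor, or 3.39 times with the highest transcript of each alone. PLAU-001 had a mean of 3462 normalized reads, the highest of the 22 transcripts, and took 98.2% of the gene's reads. PLAU-201, in which 51 fewer coding bases are annotated, had a mean of 45.6, and PLAU-004, whose annotated end is incomplete, had a mean of 16.3. PLAU-001 and PLAU-201 differ at the start of the coding sequence. The junctions into the exon that both coding forms share are shown to make the difference visible, with 15 bases on each side and the downstream exon in capitals. PLAU-001 joins chr10:73912054-73912068 to chr10:73912215-73912229, and PLAU-201 joins chr10:73911911-73911925 to the same exon.
PLAU-001 exon 3 to 4: ttcatcaagttccatCGAACTGTGACTGTC
PLAU-201 exon 2 to 3: ctagatacgaacaggCGAACTGTGACTGTC
On the opposite strand of PLAU lies C10orf55, whose exons share 770 of the 2804 exonic bases of PLAU (27.5%). C10orf55 was listed with a summed mean of 27.1 normalized reads. Whether the reads were counted by strand is not given in the sources used here, so reads of the shared bases cannot be told apart.

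PLAUR was the most divided of the protease-side genes. It lies on the minus strand at chr19:43646095-43670547, and 4 coding transcripts were listed. PLAUR-001, which encodes the full receptor with its lipid-anchored end, had a mean of 681 normalized reads and 55.9% of the gene's reads. PLAUR-002 had a mean of 233 (19.1%) and lacks an exon of 135 bases, or 45 codons. PLAUR-012 had a mean of 181 (14.8%) and lacks another exon of 147 bases, or 49 codons. PLAUR-003 had a mean of 125 (10.2%) and ends in a different, downstream last exon. The 3 transcripts that end in the usual last exon together took 89.8% of the reads of PLAUR. The junctions that set the forms apart are printed in the direction of transcription on the minus strand, with the downstream exon in capitals, and each of the last 3 occurs in no other listed transcript.
PLAUR-001 exon 5 to 6: gcaacgagggcccaaTCCTGGAGCTTGAAA
PLAUR-001 exon 6 to 7: ccaccggcactcacgAACCGAAAAACCAAA
PLAUR-002 exon 4 to 5: aggaaggtgaagaagTCCTGGAGCTTGAAA
PLAUR-012 exon 5 to 6: gcaacgagggcccaaAACCGAAAAACCAAA
PLAUR-003 exon 6 to 7: ccaccggcactcacgAACGCTCACTCTGGG
The PLAUR-002 junction joins chr19:43656479-43656493 to chr19:43652357-43652371. The PLAUR-012 junction joins chr19:43655439-43655453 to chr19:43649129-43649143, and the PLAUR-003 junction joins chr19:43652225-43652239 to chr19:43646534-43646548. PLAUR-003 starts its last exon with the same 3 letters as PLAUR-001 and then diverges.

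Among the inhibitors, TIMP1 and TIMP2 were each spread over several transcripts, and in both the reference transcript did not lead. TIMP1, a soluble inhibitor of most secreted metalloproteinases, lies on the plus strand at chrX:47582408-47586789. Its highest transcript was TIMP1-003 with a mean of 580 normalized reads (36.5% of the gene's reads). The MANE Select transcript TIMP1-001, the form chosen jointly by Ensembl and RefSeq as the reference, had a mean of 409 (25.7%). TIMP1-004, whose annotated coding sequence is cut off at its end, had a mean of 329 (20.7%), and TIMP1-002 had a mean of 271 (17.1%). Per kilobase the order changed, since TIMP1-004 is only 341 bases long. It then held 37.1% of the TIMP1 level, TIMP1-003 held 35.7%, TIMP1-001 held 17.6% and TIMP1-002 held 9.53%.

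TIMP2 inhibits MMP14 and also takes part in the complex through which MMP14 activates the MMP2 precursor. It lies on the minus strand at chr17:78852977-78925387, and its level was 2.28 times that of MMP14 over all listed transcripts and 1.00 times with the highest transcript of each alone. TIMP2-008 led with a mean of 1395 normalized reads (40.0%), followed by TIMP2-003 with 664 (19.0%), TIMP2-004 with 635 (18.2%) and the MANE Select transcript TIMP2-001 with 628 (18.0%). TIMP2-002 had a mean of 169 (4.84%) and was annotated as a target of nonsense-mediated decay in release 24 and as a retained intron in release 44. Of the TIMP2 reads, 77.2% were assigned to the 3 transcripts with a coding sequence of 429 bases, against 660 bases in TIMP2-001. Exons of ENSG00000267601 on the other strand share 367 of the 5633 exonic bases of TIMP2 (6.52%), and that gene had no row.

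The leading TIMP1 and TIMP2 transcripts both lack the exon that carries the usual start codon, but in different ways. TIMP1-003 begins in the first exon of TIMP1-001 and skips the next one. TIMP2-008 begins in another first exon, at chr17:78874150, while TIMP2-001 begins at chr17:78925387. Both leading transcripts are annotated with 429 coding bases. This is 64 codons fewer than in TIMP1-001 and 77 codons fewer than in TIMP2-001. The usual first codons begin at chrX:47583416 in TIMP1-001 and chr17:78925088 in TIMP2-001, and the annotated ones of the leading transcripts begin at chrX:47585007 in TIMP1-003 and chr17:78871006 in TIMP2-008. The missing codons include those of the secretion signal and the amino-terminal end of the inhibitor. Whether a protein is made from the shorter forms was not measured. The junctions into the exon where the 2 kinds of transcript meet are shown to compare them, with the downstream exon in capitals and TIMP3 added as a relative.
TIMP1-001 exon 2 to 3: gcaattccgacctcgTCATCAGGGCCAAGT
TIMP1-003 exon 1 to 2: agagagacaccagagTCATCAGGGCCAAGT
TIMP2-001 exon 1 to 2: gcaatgcagatgtagTGATCAGGGCCAAAG
TIMP2-008 exon 1 to 2: tcgcaccttgctgctTGATCAGGGCCAAAG
TIMP2-003 exon 1 to 2: ctcgaagcgatgcagTGATCAGGGCCAAAG
TIMP3-001 exon 1 to 2: gcaactccgacatcgTGATCCGGGCCAAGG
The capitals stand at chrX:47584936-47584950 in TIMP1, at chr17:78873905-78873919 in TIMP2 and at chr22:32849452-32849466 in TIMP3. Of these 15 bases, 12 were equal between TIMP1 and TIMP2, 12 between TIMP1 and TIMP3, and 13 between TIMP2 and TIMP3. Over all 30 bases of the coding junctions, TIMP1-001 and TIMP2-001 shared 22, TIMP1-001 and TIMP3-001 shared 25, and TIMP2-001 and TIMP3-001 shared 22. TIMP1-003 reaches this exon from the noncoding first exon that it shares with TIMP1-001. At the next junction, TIMP1-001 and TIMP2-001 shared 21 of 30 bases.
TIMP1-001 exon 3 to 4: atcaagatgaccaagATGTATAAAGGGTTC
TIMP2-001 exon 2 to 3: atcaagcagataaagATGTTCAAAGGGCCT
This pair is shown because the annotated start codons of the short forms lie in it. That of TIMP1-003 is the ATG in the lower-case part, at the 7th base, and that of TIMP2-008 is the ATG that opens the capitals.

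TIMP3, which binds to the matrix rather than staying soluble and which also inhibits ADAM and ADAMTS proteases, had a single listed transcript. TIMP3-001 had a mean of 234 normalized reads and is 4603 bases long. TIMP3 lies on the plus strand at chr22:32801705-32863041. TIMP1 stood at 51.2 times the TIMP3 level, which became 18.3 times with the highest transcript alone and 86.5 times with lengths shortened by 200 bases. It stood at 2.50 times the TIMP2 level, which became 4.15 times with shortened lengths.

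**Figure D2:**
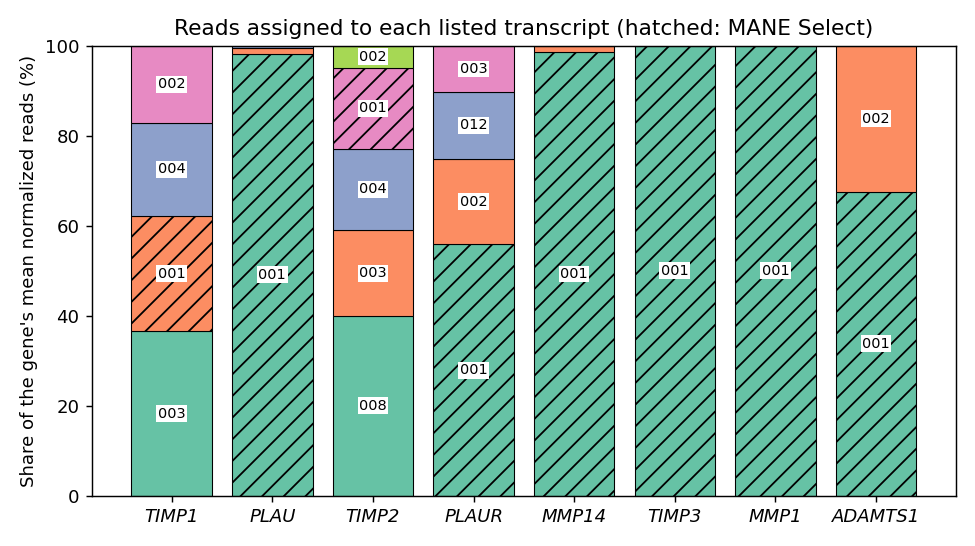
Share of each gene's mean normalized reads, in percent, assigned to each of its listed transcripts, stacked from the highest mean upward, with the transcript number inside segments over 4% and the MANE Select transcript hatched. The hatched segment filled 98.2% of PLAU and 98.6% of MMP14, but 25.7% of TIMP1 and 18.0% of TIMP2.

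A reference transcript that does not lead was common in the table. Of 8268 genes with at least 2 listed transcripts and a listed MANE Select transcript, that transcript had the highest mean in 5200 (62.9%), and its median share of the gene's reads was 55.4%. Among the 6 genes of interest that could be compared, it led in 4. Among those 8268 genes, the MANE share of TIMP1 lay at percentile 23.5 and that of TIMP2 at percentile 16.6. PLAUR lay at percentile 50.4 and ADAMTS1 at percentile 61.3, while PLAU and MMP14 lay at percentiles 97.6 and 98.1.

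The authors estimated how reads were split between transcripts, several of which share most of their bases. In release 44, 6 of the 22 transcripts have no exonic base that is absent from the other listed transcripts of their gene, namely PLAU-001, PLAUR-001, PLAUR-012, TIMP1-003, TIMP1-001 and TIMP2-004. TIMP1-003 has 1 junction that no other listed transcript has, and TIMP2-008 has 1 such junction and 14 such bases. For 15 of the 22 transcripts the annotated length was the same in the authors' release 24 and in release 44. TIMP1-001 is 892 bases long in release 24 and 769 in release 44, and PLAUR-001 is 1548 and 1368 bases long. The counts of bases and junctions may therefore differ in release 24, in which the authors split the reads. The error of the transcript shares is unknown.

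**Figure D3:**
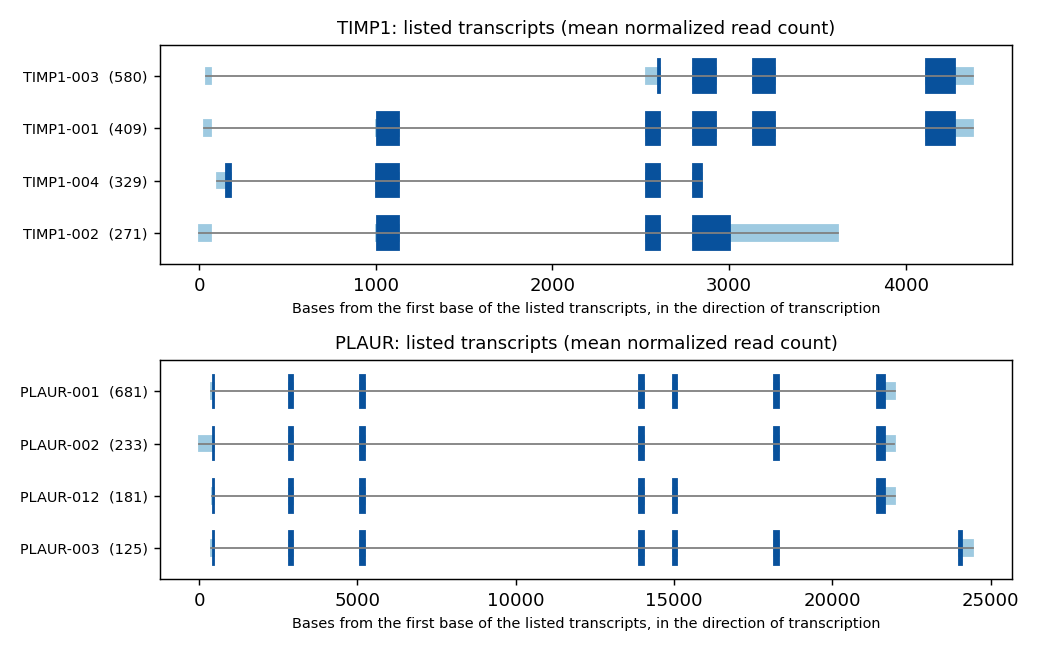
Exons of the 4 listed TIMP1 transcripts (top) and the 4 listed PLAUR transcripts (bottom), in bases from the first base of the listed transcripts, with tall dark boxes for annotated coding sequence, low light boxes for noncoding exon parts and the mean normalized read count in brackets. TIMP1-003 (580) lacks the first coding exon of TIMP1-001 (409), and PLAUR-002 (233) and PLAUR-012 (181) each lack 1 internal exon of PLAUR-001 (681).

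The 3′UTRs of the group were read for the AU-rich core ATTTA and the longer TATTTAT, which contains it, on the transcribed strand of the MANE Select transcript of each gene (release 44). ATTTA occurred in 6 of the 8 genes (75.0%), against 74.4% of 11797 listed genes, and TATTTAT in 5 of 8 (62.5%), against 37.1%. The proteases and the urokinase pair ranged widely. MMP1 had 3 ATTTA in 493 bases, or 6.09 per kilobase, percentile 94.8 of all listed genes, whose median was 1.78 per kilobase. MMP14 had none in 1719 bases, and its AT content of 40.7% lay at percentile 7.63. PLAUR had 1 in 311 bases, PLAU had 2 in 929 bases and ADAMTS1 had 5 in 1824 bases. Among the inhibitors, TIMP1 had none in a 3′UTR of only 98 bases, at percentile 3.04 of length, TIMP2 had 4 in 2690 bases and TIMP3 had 7 in 3664 bases. TATTTAT occurred in MMP1, PLAU, PLAUR, ADAMTS1 and TIMP3 and not in MMP14, TIMP1 or TIMP2. Windows of 30 bases are shown for the urokinase pair, MMP1 and TIMP3, with TATTTAT in capitals and in the direction of transcription. TIMP3 holds 2 copies, and only the one nearer the end of the mRNA is shown.
PLAU chr10:73917408-73917437: tgtacactgaaTATTTATatttcactattt
PLAU chr10:73917428-73917457: ttcactattttTATTTATatttttgtaatt
PLAUR chr19:43648600-43648629: aatattcatatTATTTATtttatacttaca
MMP1 chr11:102790272-102790301: gaatataatctTATTTATacctcagtttgc
TIMP3 chr22:32862917-32862946: ttcctccatgtTATTTATgaattttatatt
The windows of PLAU overlap by 10 bases, so its 2 copies stand close together near the end of the mRNA. PLAUR-003 ends in another exon and does not hold the PLAUR window shown. These matches are a description of letters, and binding of HuR was not measured in the libraries used here. The study also sequenced RNA pulled down with a HuR antibody from MDA-MB-231 cells, which was not analysed here.

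Promoter sequence, from 250 bases before to 50 after the annotated start (RefSeq, GRCh38.p14), was at hand for 5 of the 9 genes in 6 entries, 2 of them for PLAU. The genes without an entry were MMP1, MMP2, TIMP2 and ADAMTS1. Both strands were searched for exact matches to TGANTCA (an AP-1 consensus), TATAAA and GGGCGG, and sites that differ by a base were not counted. An exact TGANTCA was found in PLAUR only, and 7.71% of 35116 promoters hold it. TATAAA was found in none of the 6 entries, against 11.5% of all promoters. GGGCGG, which 45.0% of all promoters hold, was found in the promoters of MMP14 (1 match), TIMP1 (2), TIMP3 (5) and the start of PLAU-001 (3). The PLAUR match and 2 of the 3 PLAU matches are shown with the motif in capitals, 186 bases before the annotated start for the PLAUR motif and from 29 bases before the start of PLAU-001 upward for the PLAU window. The PLAUR window lies inside the longer first exon of PLAUR-002.
PLAUR chr19:43670337-43670366 (minus strand): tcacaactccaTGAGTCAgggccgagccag
PLAU chr10:73911074-73911103 (plus strand): gagggagGGGCGGcgccgGGGCGGgccctg

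Related proteases and inhibitors placed the group in its pathway. Of 17 other matrix metalloproteinases, 9 had a row, and none of them reached the median of all genes. Their levels ran from 9.26 to 74.5, with MMP15 (74.5), MMP11 (37.7) and MMP16 (25.8) highest, so that MMP14 was above each listed relative. ADAM and other ADAMTS proteases had a row for 14 of 17 genes, with a median of 14.1 and 4 genes above the median of all genes. ADAM9, a membrane-bound disintegrin protease, reached 1795, which was 3.94 times MMP14, and the sheddases ADAM10 and ADAM17 reached 1188 and 351.

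On the plasminogen side, 11 of 13 genes had a row, with a median of 405 and 7 genes above the median of all genes. S100A10 (8581) and ANXA2 (3618), which together bind plasminogen at the cell surface, were highest. PLAT, the tissue-type activator, reached 686, and PLAU stood at 2.25 times that level. Cathepsins and cystatins had a row for 12 of 14 genes, with a median of 597, and were led by the inhibitors CST3 (3297) and CSTB (1683) and by the protease CTSZ (1413).

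Among convertases and membrane serine proteases, 7 of 11 genes had a row, with a median of 45.1. SPINT2, an inhibitor of membrane serine proteases, reached 2292, FURIN reached 347 and PCSK7 reached 133. FURIN removes the propeptide of MMP14, and the level of MMP14 was 1.31 times its own, or 2.24 times with the highest transcript of each alone. Other inhibitors and inducers had a row for 7 of 8 genes, with a median of 71.2, led by BSG (951), which encodes the metalloproteinase inducer CD147, THBS1 (566) and TIMP4 (165). No test compares these lists, which were described by counts and medians only.

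**Figure D4:**
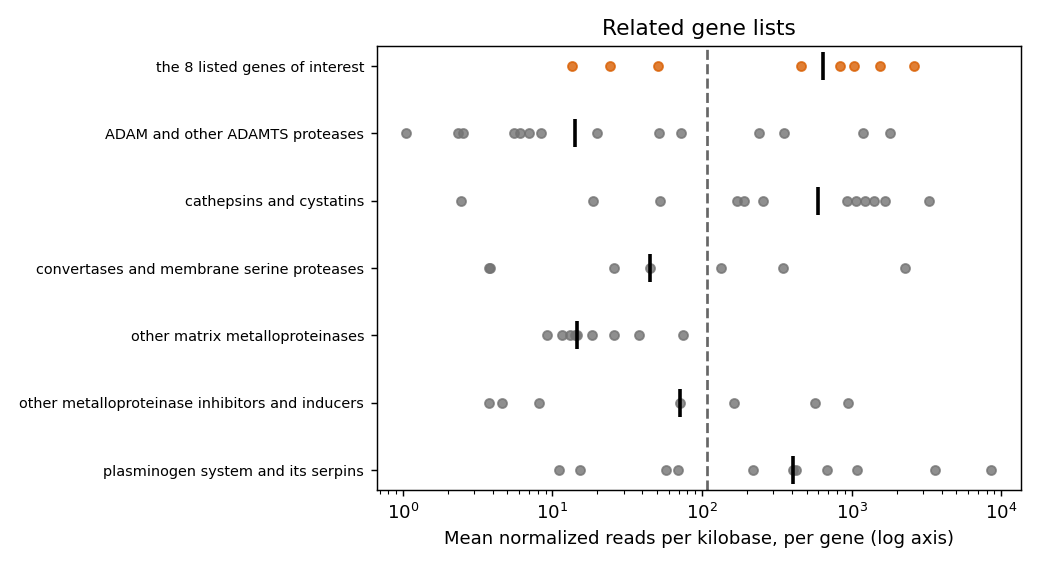
Level of each listed gene in the group of interest (top row) and in 6 related lists, on a log axis of mean normalized reads per kilobase, with a black bar at the median of each list and a dashed line at the median of all genes. The 9 other matrix metalloproteinases all lay left of the line, between 9.26 and 74.5, while 5 of the 8 genes of interest lay right of it.

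The identity of the cells was checked against markers. All 6 mesenchymal markers (VIM, CD44, AXL, CAV1, MSN and LGALS1) were listed, at levels from 427 to 10596 and with CD44 lowest at percentile 80.8. Of 8 hormone receptor and epithelial genes, ESR1, PGR and CDH1 had no row. A missing row does not show that a gene was silent, since the lowest listed mean was 7.34 normalized reads. ERBB2, GATA3, FOXA1 and EPCAM had levels between 29.5 and 44.3. KRT19, a keratin, went the other way and reached 2426 (percentile 97.7), above CD44.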

How the data were processed

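The labels give 4 libraries of MDA-MB-231 RNA, 2 with DMSO and 2 with 10 µM KH-3. A lower dose named in the methods was not analysed here and may enter the mean. The authors mapped reads with STAR to GENCODE release 24 transcripts, used eXpress for transcript-level estimates and tested treated against DMSO cells in DESeq2. STAR, DESeq2 and hg38 are also named in the submitters' processing notes, without versions. Deposited values per transcript were a signal, the authors' mean of normalized reads across libraries. The table's 3 other columns of results hold their log2 fold change, p-value and q-value and were not used. Without values per library the planned count test could not be run, and depth is unknown.

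Each mean was divided by the transcript length in the table, and transcripts were summed per gene symbol. Structures, junctions and 3′UTRs came from hg38 with GENCODE release 44, promoters from RefSeq GRCh38.p14. Named were all 9 genes and the 3 highest genes of each related list, except a list gene that is not reported here. FURIN, PLAT and MMP15 were also compared with a gene of the group. Members and lists were chosen with earlier results of these data known. Python 3.11.15, numpy 2.4.6, pandas 2.3.3 and matplotlib 3.10.9 were used, and scripts were tested on simulated data. The alternatives took the highest transcript alone, protein-coding transcripts alone, lengths shortened by 200 bases, a minimum mean of 20, or no division by length.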

Additional observations from a re-analysis of the deposited data

How the results depend on the processing

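The share of the summed level held by the TIMP genes was 56.2%. It was 36.9% with the highest transcript alone, 56.1% with protein-coding transcripts, 64.1% with lengths shortened by 200 bases, 56.5% with a minimum mean of 20 and 45.2% without division by length. The median level of the 8 genes, 645, became 417, 626 and 735 under the first 3 of these and stayed at 645 with the minimum mean. For the next shares the leading transcript was the one highest per kilobase, unless stated, which for TIMP1 was TIMP1-004 and not TIMP1-003. The median share of a gene's level held by its leading transcript was 59.1% over the 6 genes with several listed transcripts, and 61.7% without division by length. With protein-coding transcripts it was 47.9% over the 4 genes with several of these, for which it was 46.4% over all transcripts. The order of the 5 highest genes was the same under 3 of the 4 alternatives that divide by length. Summed reads without division by length were not used to order genes. With the highest transcript alone it was PLAU, TIMP1, PLAUR, TIMP2 and MMP14. Of 32 recomputed gene levels, 6 moved by over 1.5 times. These were TIMP1 (927), PLAUR (440), TIMP2 (417) and ADAMTS1 (8.85) with the highest transcript alone, ADAMTS1 (8.85) with protein-coding transcripts, and TIMP1 (4590) with shortened lengths.

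No paired analysis was possible because the table has no value per library. For the same reason the edgeR and DESeq2 comparisons, the count filter, the replicate block and leaving out each library were not run.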
